A study of Mus musculus with 12 samples.

Results

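The genes described here encode the ephrins, their Eph receptors, the Slit proteins and their Robo receptors, and netrins with their receptors of the Dcc, neogenin and Unc5 families. They were chosen by symbol from the 55401 genes of the count table: every ephrin, EphA, EphB, Slit 1 to 3, Robo 1 to 4 and Unc5 symbol, with Ntn1, Ntn4, Dcc and Neo1. That rule took 37 genes, of which 27 passed the filter on low counts and were tested. RNA came from the cell pellet of a peritoneal lavage with 8 mL of saline, taken from C57BL/6J mice. The group called ID8 received the ovarian cancer line labelled ID8 (defb29/Vegf-a), a derivative made to carry the beta-defensin Defb29 and the growth factor Vegfa. The group called ID8-FSHR received that line labelled as also carrying the follicle-stimulating hormone receptor, and both were sampled 7 days after intraperitoneal injection. The uninjected group received nothing, so tumour cells and the act of injection cannot be told apart. Each group holds 4 libraries that the submitters call biological replicates. Age, sex and the number of clones behind each line are not given in the labels.

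Ephrins and Eph receptors are both membrane proteins, so they signal where cells touch, and each side can signal into its own cell. A-type ephrins hang on a lipid anchor and B-type ephrins span the membrane, while the Eph receptors are the largest family of receptor tyrosine kinases. Slits and netrins are secreted: Slits bind Robo receptors, and netrins bind Dcc, neogenin and the Unc5 receptors. All were first studied in axon guidance, and outside the nervous system they act in vessel growth, epithelial boundaries and cell migration.

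The libraries held 47419608 to 64333677 counts each, and levels are given as CPM, counts per 1000000 of the effective library size, so they are shares of a cell mixture. In such bulk RNA, fewer cells of a type and less RNA per cell cannot be told apart. The 14 markers of mesothelium and ID8 tumour cells summed to 21.01 to 23.6 CPM in uninjected mice, to 7199 to 9191 after ID8 and to 2041 to 6037 after ID8-FSHR. The lowest tumour library, at 2041 CPM, was ID8-FSHR replicate 2, which also stood apart on the first principal component (-24.8 against -68.7 to -60.7 in the other 7). Results that involve ID8-FSHR are therefore given with and without it where it changes them. Markers of resident large macrophages summed to 14824 to 17702 CPM in uninjected lavage against 6072 to 7669 and 3977 to 7366 CPM. The receptor's own gene, Fshr, had 9 counts over the 4 ID8-FSHR libraries, 2 over ID8 and 0 over the uninjected, so its row does not check the label. Defb29 had 0 counts in uninjected mice and stood at 26.2 ± 3.76 CPM in ID8 and 18.5 ± 6.88 in ID8-FSHR (SD, n = 4).

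The resting lavage held few of these transcripts in quantity. Per kilobase of exon, Efnb2 at 28.1 ± 4.21 and Epha2 at 18.9 ± 2.49 CPM per kb (SD, n = 4) led, followed at a distance by Epha4 at 3.35 ± 0.352, Unc5a at 1.801 ± 0.236 and Efnb1 at 1.68 ± 0.362. Epha4 lay above Unc5a beyond the spread of the libraries, whereas Unc5a, Efnb1, Ntn4 and Neo1, all under 2 CPM per kb, did not differ beyond theirs. In ID8 the order changed to Ntn4 (33.6 ± 5.01), Efnb2 (30.1 ± 2.88), Unc5b (23.03 ± 2.76), Epha2 (20.1 ± 5.47) and Ephb6 (18.5 ± 1.36 CPM per kb), where Efnb2 and Unc5b were the only neighbours in this order whose SD ranges did not meet. In ID8-FSHR it was Efnb2 (33.2 ± 5.09), Epha2 (21.7 ± 7.99), Efnb1 (13.7 ± 4.27), Unc5b (13.3 ± 4.73) and Ntn4 (11.9 ± 2.85 CPM per kb), and every pair of neighbours there overlapped within its SD.

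Lavage after ID8 injection was compared with uninjected lavage to ask which guidance genes differ once tumour cells are in the cavity. Of the 37 genes 19 were higher, 2 were lower, 6 were not called and 10 fell below the filter (edgeR quasi-likelihood test, Benjamini-Hochberg adjusted p under 0.05 over 16915 genes). Over all tested genes 32.7% were higher and 31.4% lower, or 64.1% in either direction, and the median log2 fold change was -0.03 against 2.85 over the 27. The filter takes a gene that reaches about 0.187 CPM in 4 libraries, and 11 of the 27 did so through the tumour groups alone, so the last median is a description. The ID8 and uninjected values did not overlap for 21 of the 27 genes and for 62.5% of all tested genes. Among the 16 genes over that level in all 4 uninjected libraries, 10 were higher, 2 lower and 4 not called. Against the same uninjected libraries, ID8-FSHR showed 17 higher, 2 lower and 8 not called, beside 33.9% and 30.6% of all tested genes, or 64.5% in either direction. Of the 16 genes over the level in all uninjected libraries, 9 were higher, 2 lower and 5 not called in ID8-FSHR. There the values did not overlap for 18 of the 27 and for 57.0% of all. Markers of fibroblasts and mural cells, at 30.8 to 42.4 CPM in sum in uninjected lavage, stood at 453 to 586 in ID8 and 229 to 424 in ID8-FSHR. Their sum thus moved with the raised genes, as that of the tumour and mesothelial markers did. Of 8 tested fibroblast and mural markers, 6 were higher and Thy1 lower in ID8, and 5 were higher and 3 not called in ID8-FSHR. The part of either marker list in the calls was not tested. The comparisons share their uninjected libraries and are therefore set side by side gene by gene. Epha1 and Epha4 were called higher in ID8 and not in ID8-FSHR, and the direct test between the tumour groups called Epha4. Epha1 was called there too, but it reached the filter level in the 4 ID8 libraries and in 0 others, so it was tested because it was high in ID8, and its values are a description.

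**Figure D1:**
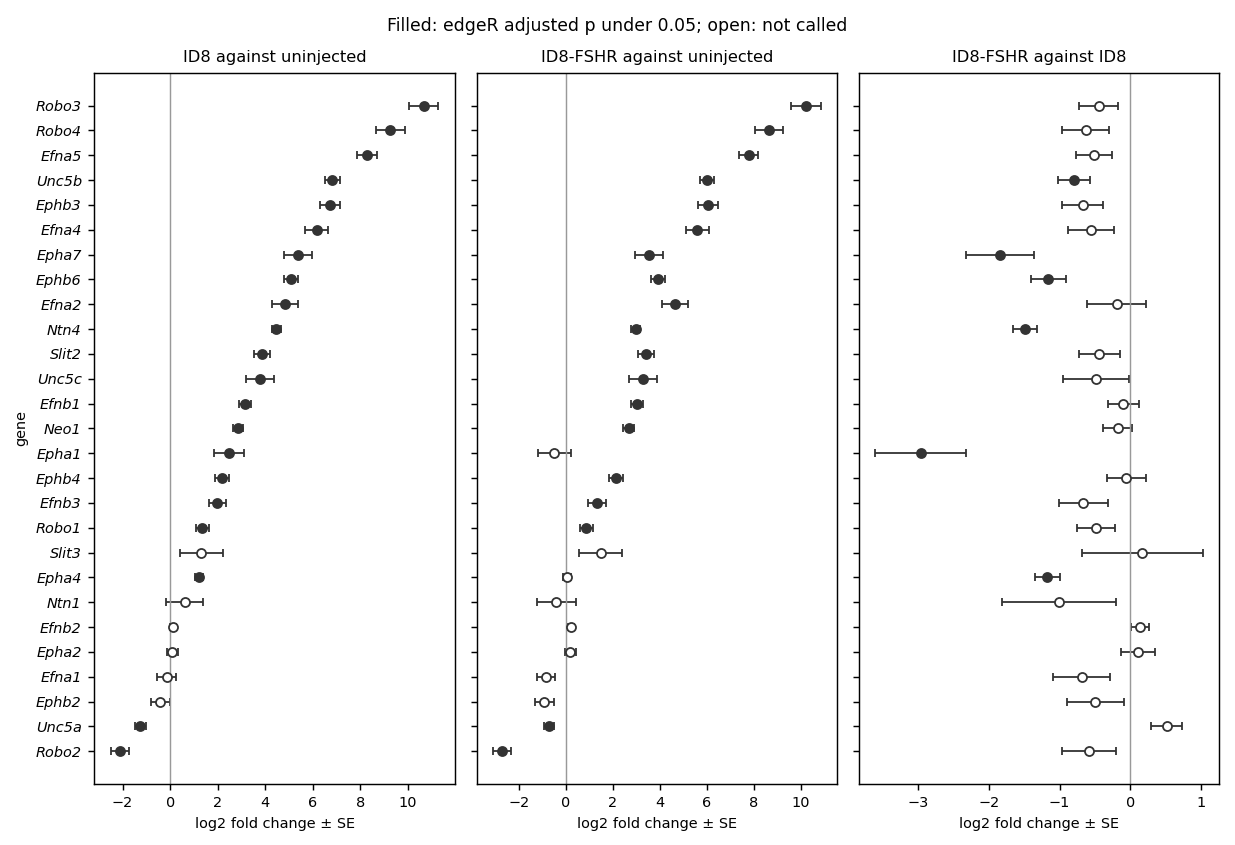
Log2 fold change with its standard error for the 27 tested genes (rows) in the 3 comparisons, with filled points where the edgeR adjusted p was under 0.05. Robo2 and Unc5a lie left of 0 in both comparisons with uninjected mice, the 95% intervals of Efnb2 and Epha2 include 0 in all 3 comparisons, and the 6 filled points of the right panel are all negative. The Robo3 value rests on 0 counts in uninjected mice and its size depends on the fit.

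Among the A-type ephrins, Efna5 rose the most. Efna5 (ENSMUSG00000048915.12, minus strand of chromosome 17, 62604184 to 62881317) stood at 0.0789, 0.111, 0.0404 and 0.174 CPM in uninjected replicates 1 to 4, at 34.5, 26.2, 33.9 and 33.2 in ID8 and at 30.2, 10.3, 26.6 and 22.7 in ID8-FSHR. The uninjected libraries hold next to none of it and every tumour library is above 10 CPM, with ID8-FSHR replicate 2 the lowest. The log2 fold change was 8.29 (SE 0.42, edgeR adjusted p = 4.56e-09) in ID8 and 7.78 (SE 0.42, edgeR adjusted p = 8.52e-09) in ID8-FSHR. In the brackets that follow, a pair of values gives the log2 fold change against uninjected mice in ID8 and then in ID8-FSHR, both called. Efna4 stood at 0.0592, 0.0369, 0.0404 and 0.0436 CPM in the uninjected group, 3.08, 2.14, 4.56 and 3.71 in ID8 and 3.48, 1.05, 2.62 and 1.97 in ID8-FSHR (6.16, SE 0.48, and 5.60, SE 0.48). Efna2 stood at 0.118, 0.129, 0.364 and 0 CPM, 3.76, 3.35, 5.38 and 5.497 and 4.602, 2.73, 5.15 and 3.25 in the same order (4.85, SE 0.54, and 4.65, SE 0.54). All 3 were separated from the uninjected group without overlap, and all 3 passed the filter through the tumour groups alone. Efna1 and Efna3 lie beside Efna4 on chromosome 3, all on the minus strand: 10424 bases separate Efna3 from Efna4, and 32756 bases separate Efna1 from Efna3. Efna1 was at 0.592 ± 0.187 CPM in the uninjected group, 0.532 ± 0.208 in ID8 and 0.329 ± 0.0954 in ID8-FSHR, with all groups overlapping (edgeR adjusted p = 0.753 and 0.0831 against uninjected). Efna3 never exceeded 4 counts in a library. Efna3 was below the filter and was not tested, and Efna4 was tested because it was high in the tumour groups. The calls therefore do not compare these neighbours.

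Among the B-type ephrins, Efnb2 was the most abundant and was not called in any comparison. Efnb2, the partner of Ephb4 in arteries and veins, (ENSMUSG00000001300.16, minus strand of chromosome 8, 8617434 to 8661242) stood at 220.3, 209, 185 and 155 CPM in the uninjected group, 209, 233, 187 and 197 in ID8 and 195, 277, 217 and 219.8 in ID8-FSHR. The groups overlapped, with the highest value in ID8-FSHR replicate 2 and the lowest in uninjected replicate 4. The 95% interval of the log2 fold change ran from -0.17 to 0.37 in ID8 and from -0.03 to 0.51 in ID8-FSHR. With DESeq2 the ID8-FSHR difference of 0.28 passed the threshold (adjusted p = 0.0461). Efnb1, on the X chromosome, rose from 4.89, 4.65, 6.28 and 7.32 CPM to 47.4, 41.8, 56.2 and 58.1 in ID8 and 58.1, 26.4, 57.2 and 48.1 in ID8-FSHR. Every tumour library was above every uninjected one (3.14, SE 0.24, edgeR adjusted p = 1.7e-07, and 3.04, SE 0.24, edgeR adjusted p = 2.28e-07). Efnb3 was low throughout, at 0.344 ± 0.09696, 1.37 ± 0.523 and 0.865 ± 0.308 CPM in uninjected, ID8 and ID8-FSHR mice, and was called higher in both (1.99, SE 0.37, and 1.33, SE 0.37). B-type ephrins thus stood at 198 ± 27.7 CPM in sum in uninjected mice and 259 ± 12.6 in ID8, with Efnb2 holding 94.0% and 66.5% of the family's level per kilobase.

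**Figure D2:**
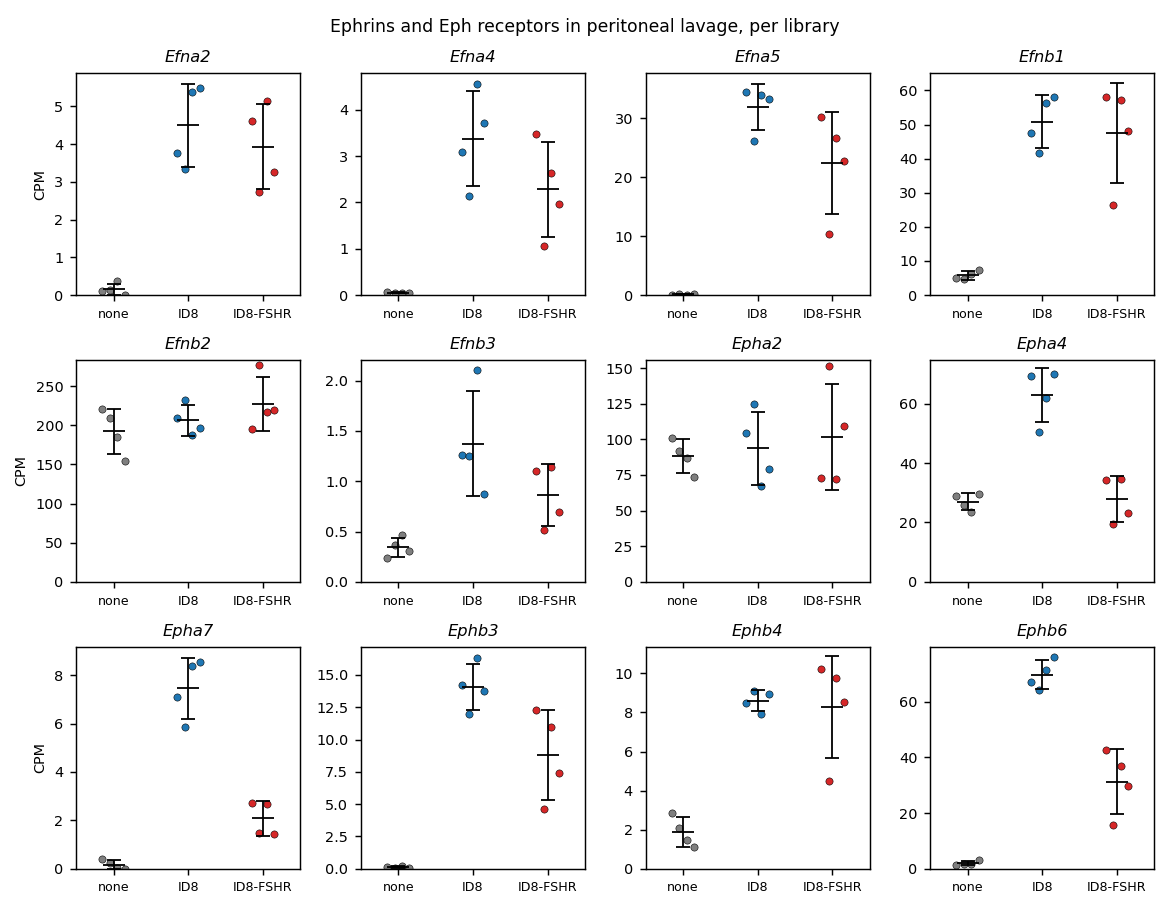
CPM of 12 ephrin and Eph receptor genes in each library (points, replicates 1 to 4 from left to right) for mice with no injection, ID8 and ID8-FSHR, with the mean and SD as bars. Efnb2 and Epha2 overlap across the groups, Epha4 is high in ID8 alone, and the other genes are lowest in uninjected mice.

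Of the EphA receptors, Epha2 was abundant and not called, while Epha4 and Epha7 differed between the tumour groups. Epha2, a receptor kinase of epithelia and of many carcinomas, (ENSMUSG00000006445.3, plus strand of chromosome 4, 141301240 to 141329384) stood at 101, 91.9, 87.1 and 73.3 CPM in the uninjected group, 104, 124, 67.6 and 78.9 in ID8 and 73.2, 151, 72.4 and 109 in ID8-FSHR. The 3 groups overlapped, and both tumour groups spread more widely than the uninjected one. Its 95% interval for the log2 fold change ran from -0.43 to 0.60 in ID8 and from -0.32 to 0.72 in ID8-FSHR. Epha4, which binds ephrins of both types, (ENSMUSG00000026235.14, minus strand of chromosome 1, 77367185 to 77515088) stood at 28.98, 25.9, 23.5 and 29.6 CPM in the uninjected group, 69.2, 50.4, 62.02 and 70.04 in ID8 and 34.4, 19.3, 34.5 and 23.3 in ID8-FSHR. The ID8 libraries lie above all others and the remaining groups overlap. The log2 fold change was 1.22 in ID8 (SE 0.18, edgeR adjusted p = 5.23e-05) and 0.05 in ID8-FSHR (SE 0.18, edgeR adjusted p = 0.826), and without ID8-FSHR replicate 2 the ID8-FSHR value was 0.29. Epha7 was at 0.395, 0.258, 0.0404 and 0 CPM in the uninjected group, 7.09, 5.85, 8.38 and 8.54 in ID8 and 2.72, 1.47, 2.68 and 1.44 in ID8-FSHR. Its 3 groups did not overlap, with ID8 the highest (5.38, SE 0.60, and 3.54, SE 0.59, against uninjected). Epha7 passed the filter through the tumour groups alone. Epha1 reached 0.315 to 0.645 CPM in ID8, and 0.120 CPM at most in ID8-FSHR. Exons of Epha1 share 236 bases with the antisense gene Zyx, which stood at 212 ± 5.09, 361 ± 18.7 and 313 ± 19.5 CPM in uninjected, ID8 and ID8-FSHR mice, and the sources used here do not give the strand setting of the counting.

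Of the EphB receptors 3 rose. Ephb6, whose kinase domain is inactive, had the highest level per kilobase, and Ephb3 the largest rise. Ephb6 (ENSMUSG00000029869.7, plus strand of chromosome 6, 41605482 to 41620509) stood at 1.5, 1.86, 1.88 and 3.01 CPM in the uninjected group, 67.2, 64.2, 71.5 and 75.96 in ID8 and 42.7, 15.7, 36.9 and 29.7 in ID8-FSHR. No library of a group reached into another group (5.08, SE 0.31, edgeR adjusted p = 1.91e-08, and 3.93, SE 0.29, edgeR adjusted p = 1.32e-07). Ephb3 was at 0.158, 0.0738, 0.242 and 0.0436 CPM, 14.2, 11.95, 16.4 and 13.8 and 12.3, 4.62, 10.98 and 7.39 in the same order (6.74, SE 0.42, and 6.06, SE 0.42). Ephb4, a receptor of venous endothelium, rose from 2.84, 2.07, 1.45 and 1.13 CPM to 8.48, 9.09, 7.91 and 8.95 in ID8 and 10.2, 4.52, 9.78 and 8.54 in ID8-FSHR, where replicate 2 is the lowest (2.19, SE 0.29, and 2.14, SE 0.29). The tumour libraries again lie above the uninjected ones for Ephb3 and Ephb4, and Ephb3 passed the filter through the tumour groups alone. Ephb2 stayed under 1 CPM in every library and was not called (edgeR adjusted p = 0.382 and 0.0655). It was called lower in ID8-FSHR without ID8-FSHR replicate 1 (adjusted p = 0.0217).

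The Robo receptors split: Robo1, Robo3 and Robo4 rose and Robo2 fell. Robo3 and Robo4 passed the filter through the tumour groups alone, so their calls are a description. Robo4, the Robo of endothelium, (ENSMUSG00000032125.21, plus strand of chromosome 9, 37401897 to 37415115) had 6, 0, 0 and 0 counts in uninjected replicates 1 to 4, and stood at 21.4, 18.8, 19.1 and 20.1 CPM in ID8 and 14.5, 5.41, 14.9 and 16.5 in ID8-FSHR. The groups did not overlap, and the log2 fold change was 9.26 (SE 0.60, edgeR adjusted p = 3.71e-08) in ID8 and 8.64 (SE 0.60, edgeR adjusted p = 7.13e-08) in ID8-FSHR. Robo3, which in commissural axons holds back the response to Slit, had 0 counts in all 4 uninjected libraries. It stood at 4.41, 4.03, 3.45 and 3.31 CPM in ID8 and 2.89, 1.49, 3.02 and 3.72 in ID8-FSHR. Set against the limit of 3 counts over the 4 uninjected libraries, ID8 was at least 256-fold higher and ID8-FSHR was at least 188-fold higher (edgeR adjusted p = 1.96e-07 and 3.04e-07). These bounds take each count as a separate fragment, which low counts here may not be. Robo3 and Robo4 lie tail to tail on chromosome 9 with 553 bases between their ends, and the Robo3 count was 16.5% to 27.6% of the Robo4 count in each of the 8 tumour libraries. Whether reads from beyond the end of Robo4 add to the Robo3 row was not tested.

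Robo1 (ENSMUSG00000022883.11, plus strand of chromosome 16, 72308306 to 73046095) went from 10.4, 5.24, 8.36 and 13.9 CPM in uninjected mice to 23.9, 20.04, 25.8 and 26.4 in ID8 and 20.7, 10.2, 21.4 and 16.7 in ID8-FSHR. ID8 lay wholly above the uninjected group, whereas ID8-FSHR replicate 2 fell within it (1.35, SE 0.27, edgeR adjusted p = 0.000829, and 0.87, SE 0.27, edgeR adjusted p = 0.0137). Without that replicate the ID8-FSHR value was 1.15 (SE 0.25, edgeR adjusted p = 0.00176). Robo2 (ENSMUSG00000052516.19, minus strand of chromosome 16, 73891839 to 74411825) moved the other way, from 3.63, 5.92, 2.48 and 4.38 CPM to 1.13, 0.726, 1.51 and 0.403 in ID8 and 0.617, 0.477, 0.781 and 0.639 in ID8-FSHR. Every tumour library was below every uninjected library, and the Robo2 log2 fold change was -2.12 (SE 0.38, edgeR adjusted p = 0.000275) and -2.703 (SE 0.39, edgeR adjusted p = 4.72e-05) in that order. Robo1 and Robo2 are neighbours on chromosome 16, with 845743 bases between them. The leading Robo per kilobase was Robo1 in uninjected mice, at 69.9% of the family, and Robo4 in the tumour groups, at 64.4% in ID8 and 61.9% in ID8-FSHR. Markers of B cells summed to 2864 to 3749.8 CPM in uninjected, 366 to 523 in ID8 and 318 to 556 CPM in ID8-FSHR lavage, and so moved with Robo2. The sum of the resident macrophage markers given above did too. In the same order, mean sums were 47572, 19959 and 18021 CPM for monocytes and small macrophages, 221, 96.4 and 86.9 for neutrophils, and 1136, 878 and 683 for mast cells. These sums hold genes that went the other way: Gata6 of the resident macrophage list and Kit of the mast cell list were called higher in both tumour groups. Chil3, Ly6c2 and Retnlg were called higher in ID8-FSHR. Of 6 neutrophil markers only Csf3r was called lower in either tumour group. Of 6 markers of monocytes and small macrophages, 3 were lower in ID8, while 1 was lower and 2 were higher in ID8-FSHR. T cell markers did not follow Robo2, with mean sums of 89.7, 42.1 and 93.3 CPM. Of 8 T cell markers 7 were lower in ID8 and 0 in ID8-FSHR. The part of any of these lists in the Robo2 value was not tested.

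Endothelial markers were set beside Robo4 and Ephb4 because those receptors are known from vessels. Of the 11 markers, Cldn5 had 0 counts in all 12 libraries, Emcn had 4 counts in 1 ID8 library and 0 elsewhere, and Tie1 had 0 counts in ID8. The endothelial cadherin Cdh5 stood at 0.476 ± 0.177, 0.231 ± 0.1796 and 0.313 ± 0.275 CPM in uninjected, ID8 and ID8-FSHR mice, against 19.9 ± 1.199 CPM of Robo4 in ID8. In each comparison with uninjected mice 3 markers, Esam, Flt1 and Kdr, were higher. The largest log2 fold change among them was 9.66 in ID8 and 9.06 in ID8-FSHR. Pecam1 and Egfl7 were lower in both, and Vwf in ID8 alone by call. The list summed to 88.8 to 117, 145 to 174 and 111 to 138 CPM, and most of the uninjected sum was Pecam1, at 98.6 ± 11.9 CPM, which leukocytes also carry. The part of endothelial cells in the Robo4 and Ephb4 values was not tested.

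Slit2, the ligand of Robo1 and Robo2, rose. Slit2 (ENSMUSG00000031558.15, plus strand of chromosome 5, 47983138 to 48307733) stood at 0.592, 1.18, 1.01 and 0.871 CPM in the uninjected group, 12.01, 11.05, 14.8 and 15.5 in ID8 and 10.8, 5.85, 16.2 and 6.43 in ID8-FSHR. No tumour library came near the uninjected range (3.86, SE 0.34, edgeR adjusted p = 5.49e-07, and 3.42, SE 0.34, edgeR adjusted p = 1.5e-06). Slit3 stayed under 1 CPM and was not called (edgeR adjusted p = 0.226 and 0.172). With all libraries kept, limma-voom called it higher in both (adjusted p = 0.0417 and 0.0224). Uninjected replicate 4 had 38 of the group's 46 counts, and without it Slit3 was higher in ID8 by 3.48 (adjusted p = 0.00353) and in ID8-FSHR by 3.65 (adjusted p = 0.00259) on the log2 scale. Slit3 reached the filter level in 3 ID8, 4 ID8-FSHR and 1 uninjected library, which is the replicate 4 left out. It thus passed the filter through the tumour groups alone, and these calls are a description. Slit1 fell below the filter, with 28 counts over ID8, 36 over ID8-FSHR and 4 over the uninjected libraries.

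Netrin 4 had the highest mean per kilobase of the 37 genes in ID8, within the spread of Efnb2. Ntn4, a netrin of basement membranes that binds laminin, (ENSMUSG00000020019.4, plus strand of chromosome 10, 93640681 to 93747207) stood at 5.98, 5.98, 6.24 and 4.44 CPM in the uninjected group, 129.7, 105, 119 and 149 in ID8 and 55.6, 30.02, 47.04 and 46.1 in ID8-FSHR. The 3 groups were wholly apart (4.47, SE 0.20, edgeR adjusted p = 1.79e-09, and 2.98, SE 0.19, edgeR adjusted p = 2.82e-08, against uninjected). Ntn1, the netrin of the floor plate, remained at or below 0.350 CPM in every library and was not called (edgeR adjusted p = 0.52 and 0.691). Of the receptors that share a structure with Dcc, Neo1 (ENSMUSG00000032340.8, minus strand of chromosome 9, 58874687 to 59036441), which also binds repulsive guidance molecules, rose from 13.2, 9.98, 11.96 and 16.9 CPM to 86.6, 80.5, 107 and 102 in ID8 and 104, 49.9, 101 and 77.1 in ID8-FSHR. Groups did not overlap between tumour and uninjected mice (2.85, SE 0.23, edgeR adjusted p = 2.3e-07, and 2.67, SE 0.23, edgeR adjusted p = 3.98e-07). Dcc itself had 0 counts in all 12 libraries. A count of 0 allows up to 0.0444 to 0.0653 CPM per library if each count is a separate fragment.

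The Unc5 receptors split as the Robo receptors did. Unc5b, a netrin receptor of endothelium that is also a target of p53, (ENSMUSG00000020099.8, minus strand of chromosome 10, 60762593 to 60831581) stood at 1.54, 1.09, 1.33 and 1.13 CPM in the uninjected group, 157, 129, 129 and 161 in ID8 and 107, 40.1, 90.6 and 94.97 in ID8-FSHR. The groups were apart, and the fold against uninjected mice was 113 in ID8 (log2 6.82, SE 0.31, edgeR adjusted p = 1.99e-09) and 65.3 in ID8-FSHR (log2 6.03, SE 0.30, edgeR adjusted p = 4.61e-09). Unc5a (ENSMUSG00000025876.15, plus strand of chromosome 13, 54949411 to 55006018) stood at 8.41, 6.11, 7.74 and 7.78 CPM in the uninjected group, 2.902, 3.97, 2.71 and 3.05 in ID8 and 3.18, 5.41, 6.01 and 3.505 in ID8-FSHR. All tumour libraries lay below the uninjected ones, the nearest being ID8-FSHR replicate 3 against uninjected replicate 2. Unc5a fell, with log2 fold changes of -1.25 in ID8 (SE 0.22, edgeR adjusted p = 0.000251) and -0.73 in ID8-FSHR (SE 0.22, edgeR adjusted p = 0.0096). Exons of Unc5a share 34 bases with the antisense gene Hk3, a hexokinase of myeloid cells that stood at 45.3 ± 3.95, 38.9 ± 13.9 and 61.7 ± 22.3 CPM in uninjected, ID8 and ID8-FSHR mice. Its part in the Unc5a row was not tested. Unc5c stayed under 1 CPM and was higher in both tumour groups (3.76, SE 0.59, and 3.28, SE 0.60), and Unc5d had 0 counts throughout. Unc5c passed the filter through the tumour groups alone. Per kilobase, Unc5a made up 89.8% of the Unc5 family in uninjected mice and Unc5b 96.7% in ID8 and 92.3% in ID8-FSHR.

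**Figure D3:**
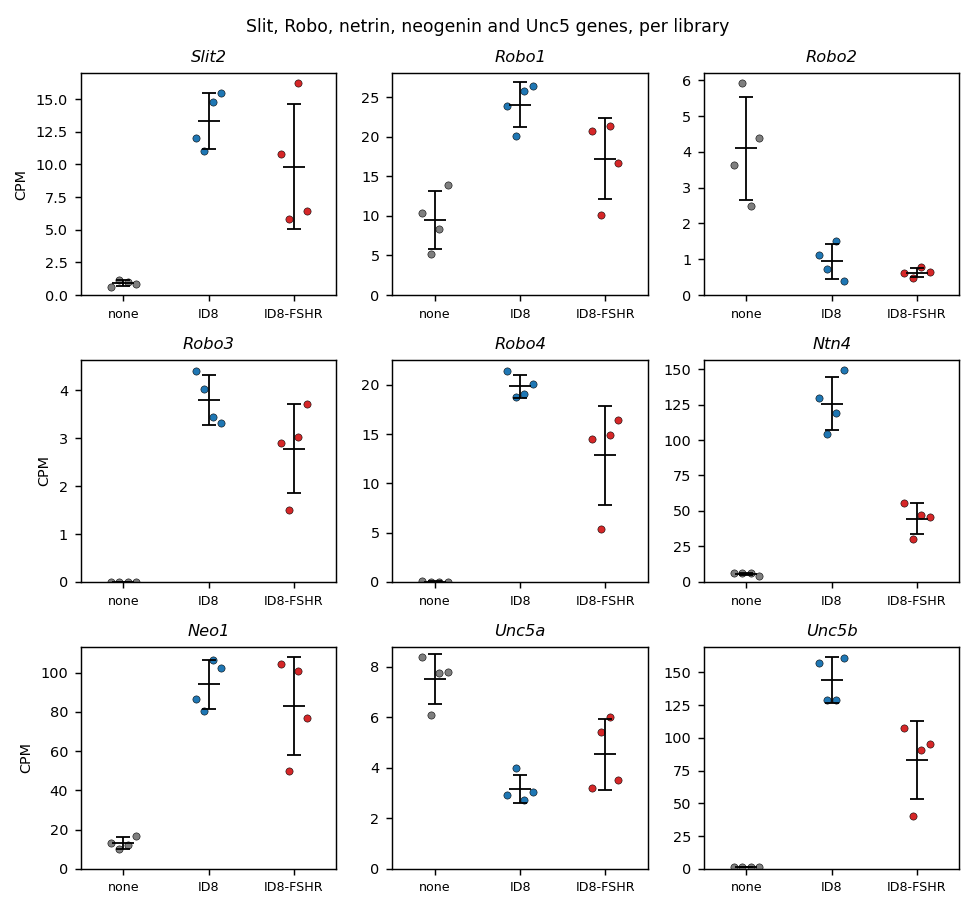
CPM of 9 Slit, Robo, netrin, neogenin and Unc5 genes per library (points, replicates 1 to 4 from left to right) in mice with no injection, ID8 and ID8-FSHR, with the mean and SD as bars. Robo2 and Unc5a are highest with no injection, where Unc5b stands at 1.09 to 1.54 CPM, and Ntn4 shows 3 separate levels.

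The stretches before the RefSeq starts are shown for a pair of genes that went opposite ways in each of the Unc5 and Robo families, with that of Efna5, the A-type ephrin that rose the most. Sequences are those of RefSeq on GRCm38.p6, and a window of 250 bases before the start was found for 32 of the 37 genes. Bases that GENCODE M21 places in an exon were left off, which removes 75 bases next to the start in Robo4. Capitals mark matches, on either strand, to the TATA box TATAAA, the GC box GGGCGG, the EGR1 and WT1 motif GCGNGGGCG and the TEAD motif GGAATG, where matches may overlap.
Unc5a, chr13:54949161-54949410, plus strand: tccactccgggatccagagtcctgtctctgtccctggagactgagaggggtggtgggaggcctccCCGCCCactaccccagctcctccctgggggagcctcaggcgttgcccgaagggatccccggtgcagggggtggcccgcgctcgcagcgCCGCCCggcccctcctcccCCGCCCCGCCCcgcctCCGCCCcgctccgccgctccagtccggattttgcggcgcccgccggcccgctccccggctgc
Unc5b, chr10:60831582-60831831, minus strand: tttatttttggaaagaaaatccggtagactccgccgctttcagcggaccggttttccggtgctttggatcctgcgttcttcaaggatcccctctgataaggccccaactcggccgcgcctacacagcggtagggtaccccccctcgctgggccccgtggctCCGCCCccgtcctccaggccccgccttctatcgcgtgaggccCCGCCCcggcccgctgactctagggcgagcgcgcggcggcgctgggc
Robo2, chr16:74411826-74412075, minus strand: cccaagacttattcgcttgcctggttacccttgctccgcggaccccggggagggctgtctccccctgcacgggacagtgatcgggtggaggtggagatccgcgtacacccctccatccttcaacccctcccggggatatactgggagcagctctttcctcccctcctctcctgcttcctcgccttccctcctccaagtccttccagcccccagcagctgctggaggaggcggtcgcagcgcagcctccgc
Robo4, chr9:37401722-37401896, plus strand: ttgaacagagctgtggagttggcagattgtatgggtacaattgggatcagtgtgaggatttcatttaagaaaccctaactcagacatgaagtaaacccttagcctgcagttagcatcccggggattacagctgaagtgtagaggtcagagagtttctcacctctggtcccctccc
Efna5, chr17:62881318-62881567, minus strand: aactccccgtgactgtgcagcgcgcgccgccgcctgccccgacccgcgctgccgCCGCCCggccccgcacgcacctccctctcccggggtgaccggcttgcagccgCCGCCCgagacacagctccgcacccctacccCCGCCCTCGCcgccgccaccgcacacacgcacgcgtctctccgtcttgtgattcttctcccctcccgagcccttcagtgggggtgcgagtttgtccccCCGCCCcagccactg
The Unc5a window holds GC boxes and 25 CpG pairs, and so does the Unc5b window with 27 CpG pairs, though Unc5a fell and Unc5b rose. Neither the Robo2 window with 14 CpG pairs nor that of Robo4 with 2 holds any of the 4 motifs. Motifs and CpG pairs were counted over the full 250 bases, of which the Robo4 stretch shown is a part. Of the family members not shown, which also rose, Robo3 has 3 GC boxes and 12 CpG pairs, whereas Robo1 and Unc5c hold none of the 4 motifs. For Robo2 the window nearest the gene is shown, of 3 that RefSeq gives. The GC box was in 26 of the 37 windows of these genes and in 32.7% of all 32851 windows. The EGR1 and WT1 motif was in 7 of 37, of Efna1, Efna3, Efna5, Epha1, Epha8, Slit2 and Slit3, and in 4.70% of all windows. TATAAA was in 2 of 37, Efnb2 and Slit2, and in 12.4% of all, and GGAATG in 4 of 37 and in 12.6% of all. The median window of these genes held 18 CpG pairs, against 6 over all windows. A match describes letters and not binding.

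ID8-FSHR was compared with ID8 to ask what differs when the tumour line carries the receptor by label. Of the 27 tested genes 6 were lower in ID8-FSHR, Ntn4, Epha4, Ephb6, Unc5b, Epha7 and Epha1, 0 were higher and 21 were not called. Over all tested genes 5.56% were lower and 6.04% higher, or 11.6% in either direction, and values did not overlap between the groups in 18.5% of genes and in 7 of these 27. The median log2 fold change was -0.51 over the 27 and -0.01 over all tested genes. At an unadjusted p under 0.05, 1 of the 27 was higher by the same edgeR test, Unc5a (unadjusted p = 0.0338, adjusted 0.14), and DESeq2 and limma-voom called 0 higher. Without ID8-FSHR replicate 1 Unc5a was called (adjusted p = 0.0481), and without ID8-FSHR replicate 2 the lower calls numbered 5.

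Ntn4 fell from 126 ± 18.8 to 44.7 ± 10.7 CPM (SD, n = 4 each), which is -1.49 on the log2 scale (SE 0.17, edgeR adjusted p = 0.000174). Epha4 fell from 62.9 ± 9.099 to 27.9 ± 7.75 CPM (-1.17, SE 0.18, edgeR adjusted p = 0.00112), which is near the 26.99 ± 2.83 CPM of uninjected mice. Ephb6 fell from 69.7 ± 5.14 to 31.3 ± 11.7 CPM (-1.16, SE 0.25, edgeR adjusted p = 0.0118). For these 3 genes all ID8 libraries lay above all ID8-FSHR libraries, and without ID8-FSHR replicate 2 the log2 fold changes were -1.32, -1.02 and -0.92 (edgeR adjusted p = 7.5e-05, 0.000977 and 0.00532). Epha1 went from 0.453 ± 0.144 to 0.05703 ± 0.0422 CPM (-2.97, SE 0.64, edgeR adjusted p = 0.0112), a level of a few counts in a library, and it is no longer tested where 1 CPM in 4 libraries is required. Unc5b went from 144 ± 17.3 to 83.2 ± 29.6 CPM (-0.79, SE 0.23, edgeR adjusted p = 0.0421). Without ID8-FSHR replicate 2 its log2 fold change was smaller and still called, at -0.54 (SE 0.10, edgeR adjusted p = 0.00507). The Unc5b call was lost when any library other than ID8-FSHR replicates 1 and 2 was left out, with no filter and with the tumour groups fitted alone, at edgeR adjusted p values of 0.0536 to 0.126. Epha7 went from 7.47 ± 1.26 to 2.08 ± 0.719 CPM (-1.84, SE 0.48, edgeR adjusted p = 0.027). The Epha7 call went with no filter, when ID8 replicate 1, 3 or 4 or ID8-FSHR replicate 4 was left out, and when ID8-FSHR replicate 2 was (0.0582), at edgeR adjusted p values of 0.0544 to 0.0821.

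The sum of the mesothelial and tumour markers was lower in ID8-FSHR, as these 6 genes were, though not all of its markers were called. The 14 mesothelial and tumour markers summed to 8413 ± 852 CPM in ID8 and 4352 ± 1713 in ID8-FSHR, or 51.7% of the ID8 mean. Of the 14, 6 were called lower and 8 were not called. Ntn4 stood at 35.6% of its ID8 mean, Epha7 at 27.9%, Epha4 at 44.3%, Ephb6 at 44.8%, Unc5b at 57.8% and Epha1, on few counts, at 12.6%. Wt1 stood at 67.4%, Defb29 at 70.5% and Vegfa at 119% of theirs, and none of these was called between the tumour groups. Markers of dividing cells went the other way, with 6 of 6 higher in ID8-FSHR (979 to 1437 against 298 to 445 CPM in sum), and 4 of 8 T cell markers were higher. Of the 17 genes higher in ID8-FSHR than in uninjected mice, 15 had their lowest ID8-FSHR value in replicate 2, the library with the lowest marker sum, and Epha7 and Unc5c had it in replicate 4. The part of these cell markers in the 6 differences was not tested.

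**Figure D4:**
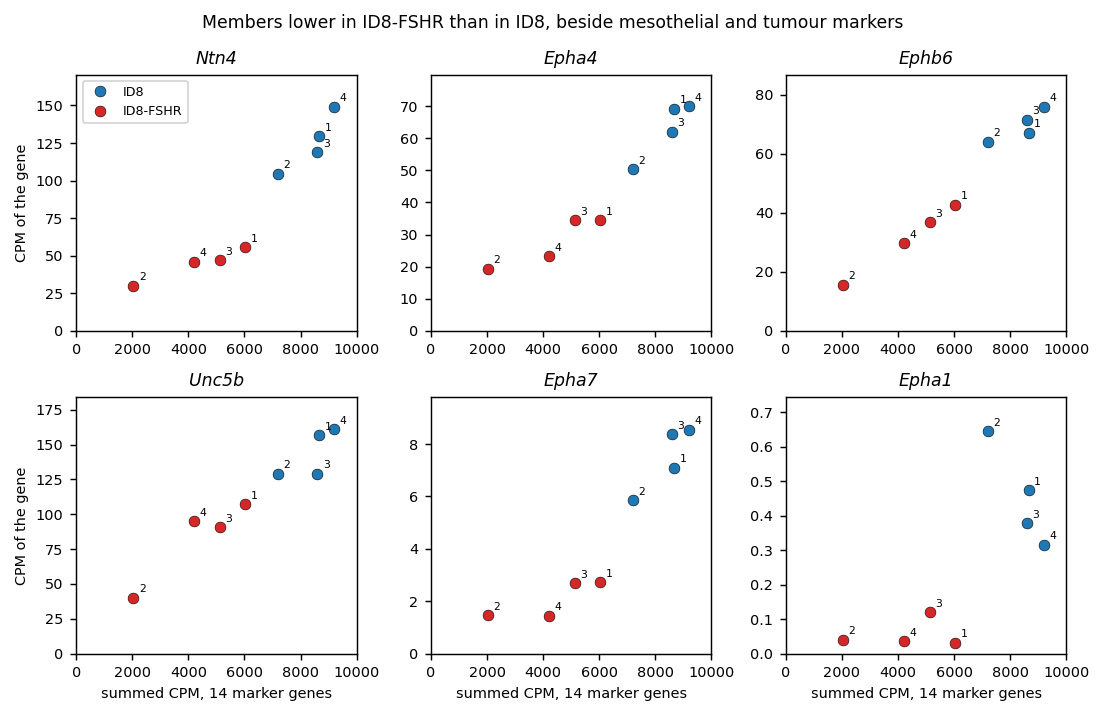
CPM of the 6 genes called lower in ID8-FSHR (vertical axes) against the summed CPM of 14 mesothelial and tumour markers (horizontal axes) in the 8 tumour libraries, numbered by replicate. Libraries of ID8 lie between 7199 and 9191 CPM of markers and those of ID8-FSHR between 2041 and 6037, so group and marker level run together.

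Several genes that rose against uninjected mice were not called between the tumour groups. Efnb1 stood at 93.3% of its ID8 mean in ID8-FSHR, Ephb4 at 96.05%, Neo1 at 88.3% and Efna2 at 87.5%. The 95% intervals of their log2 fold changes ran from -0.58 to 0.37, from -0.65 to 0.54, from -0.63 to 0.28 and from -1.10 to 0.71. Without ID8-FSHR replicate 2 the values for Efnb1, Ephb4 and Neo1 changed sign, to 0.11, 0.16 and 0.01. Efna5, Robo4, Robo3, Ephb3, Slit2 and Efna4 stood at 62.6% to 73.7% of their ID8 means and were not called (edgeR adjusted p from 0.148 to 0.341), though limma-voom called Ephb3 (adjusted p = 0.0499). The 95% interval of the Ephb3 log2 fold change, before any adjustment, ran from -1.31 to -0.04 and left out 0, while those of the other 5 included 0, as for Efna5 from -1.06 to 0.05. Robo4 was among the genes whose groups did not overlap. Without ID8-FSHR replicate 2 the log2 fold changes were -0.25 for Efna5, -0.36 for Robo4 and -0.22 for Robo3. They were -0.45 for Ephb3, -0.25 for Slit2 and -0.31 for Efna4, and none was called.

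The 10 genes below the filter were Dcc, Unc5d, Epha3, Epha5, Epha6, Epha8, Epha10, Ephb1, Slit1 and Efna3. Dcc, Unc5d and Epha10 had 0 counts in all 12 libraries. Epha5 had 2 counts in uninjected mice, Epha6 had 1 in ID8 and Epha8 had 6 in ID8, with 0 elsewhere. Epha3 had 18 counts over the uninjected, 14 over the ID8 and 31 over the ID8-FSHR libraries, and Ephb1 had 8, 12 and 6. No test was made for these genes.

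Other genes of these pathways, 55 from 3 lists of signalling partners, moved in both directions. Of the 45 that passed the filter, 24 were higher, 14 lower and 7 not called in ID8 against uninjected mice (median log2 fold change 0.35), and 24, 12 and 9 in ID8-FSHR. In percent of the 45 tested, the lower calls in ID8 are near the 31.4% of all tested genes, and the higher calls are above the 32.7%. Of all tested genes 33.9% were higher and 30.6% lower in ID8-FSHR. Among 21 tested partners of ephrins and Eph receptors, 10 were higher and 8 lower in ID8. Pdzrn3, a PDZ and RING protein, rose from 0.0487 ± 0.0459 to 31.3 ± 3.299 CPM (9.23, SE 0.44), and Grip1, a PDZ scaffold that binds B-type ephrins, rose to 4.53 ± 0.303 CPM (7.66). Among 13 Slit and Robo partners, 6 were higher and 4 lower in ID8. Among those with a mean of at least 1 CPM over all libraries, the largest rises were those of Srgap1, a GTPase activator that binds Robo1, at 0.442 ± 0.193 against 95.8 ± 11.3 CPM (7.76, SE 0.35), the heparan sulfate proteoglycan Gpc1 (5.81) and the actin regulator Enah (3.65). Nell2, a secreted ligand of Robo3 that lies under that level and is named here after its values were seen, had 0 counts in uninjected mice and 226 over the ID8 libraries. That is at least 67.2-fold higher against the limit of 3 counts over the group, if each count is a separate fragment. Of 18 netrin family genes and partners 11 were tested, and 8 were higher and 2 lower in ID8. Flrt1, Flrt2 and Flrt3, membrane proteins of which Flrt2 and Flrt3 bind Unc5 receptors, rose by 7.93, 5.78 and 4.91 on the log2 scale.

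Between the tumour groups 41 of those 45 genes were not called, and the 4 calls are a share near the 11.6% of all tested genes. Flrt2 was lower in ID8-FSHR, at 23.7 ± 6.75 against 54.4 ± 6.31 CPM (SD, n = 4 each; -1.20, SE 0.29, edgeR adjusted p = 0.0212). Gpc1 was lower too, at 71.1 ± 23.4 against 131 ± 16.2 CPM (-0.88, edgeR adjusted p = 0.0314), and Srgap2 fell by 0.23 on the log2 scale (edgeR adjusted p = 0.0277). Sh2d3c, an adaptor of Eph receptors, was higher (0.66, edgeR adjusted p = 0.0285). Leaving out single libraries took the lower calls among the 45 to between 0 and 5 and the higher calls to between 0 and 5. ID8-FSHR replicate 1 gave both upper ends. Without ID8-FSHR replicate 2 there were 0 higher calls and 1 lower.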

How the data were processed

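RNA was extracted from pelleted lavage cells with the Qiagen miRNeasy Micro kit, and libraries were made with the KAPA RNA HyperPrep kit with RiboErase, per the labels' protocols. The series text gives 4000000 injected cells and the sample protocols 5000000. The deposited values are raw counts per gene; bcl2fastq 2.20, STAR 2.7.9a and featureCounts (Subread 1.6.4) with build GRCm38.p6 are named in the submitters' processing notes. Strand setting, handling of multiply mapped reads and annotation version stand as not given in the sources used here. Of the deposited counts from 1 to 10, 75.8% were even, against 50.1% of those above 1000, so single counts may not be single fragments and limits for counts of 0 cover counting error only. Coordinates are GENCODE M21 on GRCm38.

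Counts were fitted with edgeR 4.0.16 in R 4.3.3 (TMM, filterByExpr, robust quasi-likelihood F test, all 12 libraries, group as the only term), and p-values were adjusted by Benjamini-Hochberg over 16915 genes. Intervals are 95% and p-values measure the spread between these libraries. CPM used the effective library size. Alternatives were DESeq2 1.42.0, limma-voom 3.58.1, other size factors, filters, thresholds, samples and a replicate block. Genes with a mean of at least 1 CPM in a group were described by library, and of each partner list, among genes with a mean of at least 1 CPM over all libraries, up to 3 called genes with the largest change in ID8 against uninjected mice and up to 2 between the tumour groups; 1 of these is not reported here. The genes and lists were chosen with earlier results of these data known. The fits were tested on simulated data.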

Additional observations from a re-analysis of the deposited data

Results flagged for a closer look

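In 6 of 81 groups of 4 libraries 1 value stood apart from the other 3, where chance gives about 1 in 20. Slit3 reached 0.828 CPM in uninjected replicate 4, and Robo4 reached 0.118 CPM in uninjected replicate 1, where the other 3 had 0 counts. Epha1 reached 0.197 CPM in uninjected replicate 1 and 0.120 CPM in ID8-FSHR replicate 3. Efna5 stood at 26.2 CPM in ID8 replicate 2, below the 33.2 to 34.5 CPM of the others, and Ntn4 at 4.44 CPM in uninjected replicate 4, below 5.98 to 6.24 CPM.

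The direct edgeR test between the tumour groups called 6 genes, of which Epha1 was tested because it was high in ID8. The log2 difference of ID8-FSHR from ID8 was -2.97 for Epha1, -1.84 for Epha7, -1.49 for Ntn4, -1.17 for Epha4, -1.16 for Ephb6 and -0.79 for Unc5b.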

How the results depend on the processing

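Of 81 log2 fold changes of the 27 genes, 63 kept their direction and side of the threshold in every alternative run. Of 1599 comparisons with an alternative, 1557 were unchanged in both respects, 18 lost a call (Epha7 and Unc5b between the tumour groups), 9 gained one and 15 changed sign, all 15 in uncalled genes with 1 library left out. Without single libraries, the log2 fold change for ID8-FSHR against ID8 ran for Neo1 from -0.31 to 0.015, Epha2 from -0.12 to 0.28, Ephb4 from -0.18 to 0.16, Slit3 from -0.14 to 0.41 and Efnb1 from -0.21 to 0.11. Without single libraries, the log2 fold change for ID8-FSHR against uninjected ran for Epha1 from -1.10 to 0.46, Epha4 from -0.066 to 0.29 and Ntn1 from -0.87 to 0.037. Without single libraries, the log2 fold change for ID8 against uninjected ran for Epha2 from -0.076 to 0.22 and Efna1 from -0.34 to 0.0897.

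The labels do not say whether replicate numbers pair the libraries. Between groups, correlations of same-numbered libraries ran from -0.217 to 0.352, and those of differently numbered libraries from -0.334 to 0.334. With a replicate block, Ephb2 was also called lower in ID8-FSHR than in uninjected mice (-0.95, adjusted p = 0.0409), no other call on the 27 genes changed, and 0 partner genes were higher between the tumour groups. The 6 lower calls between the tumour groups became 2 at an adjusted p under 0.01 and ranged from 4 to 6 without single libraries, and the higher calls from 0 to 1.

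With an absolute log2 fold change of at least 1, 1 of the 27 was lower in ID8-FSHR than in uninjected mice. At that fold, partner genes lower than uninjected numbered 5 in ID8 and 2 in ID8-FSHR, and those higher and lower between the tumour groups 0 and 1. At an adjusted p under 0.01 the last pair was 0 and 0. Partner genes higher between the tumour groups numbered 3 with DESeq2, 0 with limma-voom and 2 with those groups alone, and ranged from 0 to 5 without single libraries. Those lower numbered 0 with no filter and ranged from 0 to 5.

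Over all tested genes, the fold limit left 3281 higher and 2128 lower in ID8, 3343 and 2022 in ID8-FSHR, and 412 and 260 between the tumour groups, where an adjusted p under 0.01 left 428 and 279. Lower genes there numbered 1591 with DESeq2 and 604 with those groups alone. Without single libraries they ranged from 406 to 1405, and higher genes from 555 to 1731. The cause of these changes was not tested, beyond the stricter limits themselves. Genes under 1 CPM rest on few counts per library.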

Other observations

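The abundant genes Epha2 and Efnb2 kept a narrow ratio in resting lavage. The Epha2 count was 44.0% to 47.3% of the Efnb2 count in the 4 uninjected libraries, 36.2% to 53.5% in ID8 and 33.4% to 54.6% in ID8-FSHR. By contrast, the Unc5b count was 14.6% to 18.3% of the Unc5a count in uninjected libraries and exceeded it in every tumour library. The Efnb1 count was 2.22% to 4.73% of the Efnb2 count in uninjected libraries, 17.9% to 30.1% in ID8 and 9.54% to 29.7% in ID8-FSHR. These ratios are between counts of genes of different length.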
